A study of Mus musculus with 32 samples.

Results

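The AP-1 genes Jun, Junb, Jund, Fos, Fosb, Fosl1, Fosl2, Atf3, Batf and Batf3 were followed through 18 h of LPS in bone marrow-derived macrophages (BMDMs) that have or lack the nuclear receptor Nur77. They were taken by name and make up 10 of the 25067 genes in the table of tag counts. The rule that names them uses no measured value, but they were chosen with earlier results of these data known. All 10 were among the 11186 genes tested, those whose mean RPKM (counts scaled to transcript length and library size) passed 1 in any group of samples. Fosl1 reached this limit at 1 h of LPS only, in both genotypes, so that its difference from the other times was in part set by the filter.

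AP-1 factors bind DNA as dimers of basic leucine zipper proteins. JUN proteins (c-Jun, JunB and JunD) pair with each other or with FOS proteins (c-Fos, FosB, Fra-1 from Fosl1 and Fra-2 from Fosl2), whereas FOS proteins need a partner. ATF3 pairs with JUN proteins and others and is known as a brake on Toll-like receptor responses, and BATF and BATF3 pair with JUN proteins and bind with IRF factors in lymphocytes and dendritic cells. Most JUN and FOS genes are immediate early genes, which are transcribed within minutes of a stimulus such as LPS, the bacterial ligand of Toll-like receptor 4, without new protein synthesis. Nr4a1, the gene of Nur77, is one as well.

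RNA-seq was measured in 32 libraries, 4 for each genotype at 0, 1, 5 and 18 h, where 0 h is untreated and the other times follow 100 ng/ml LPS. All cells came from C57Bl6/J males of 6 to 12 weeks of age and were differentiated for 7 days in medium conditioned by L929 cells. Per the methods, the knockout is a whole-body deletion, made by crossing mice with loxP-flanked Nr4a1 to mice that express Cre recombinase from the CMV promoter, after which mice without Cre were bred, and littermates served as wild type. The labels give the genotype of the knockout samples as cre. Wild-type samples are called BMDM-WT and knockout samples BMDM-Nur77-KO. The number of animals behind the 4 replicates is not given in the sources used here, so that p-values measure only the spread between these samples, which may be technical. In bulk samples, fewer cells of a type and less RNA per cell cannot be told apart.

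Library totals over the kept transcripts were 8742362 to 15780926 counts, with a median of 11847140. Nr4a1 was at 15.5 to 25.8 CPM (counts scaled to the TMM-normalized library size) in BMDM-WT and 4.45 to 7.01 CPM in BMDM-Nur77-KO at 0 h, at 359 to 485 and 147 to 243 CPM at 1 h, and at no more than 9 counts per library at 5 and 18 h. Counts of Nr4a1 thus remained in BMDM-Nur77-KO (log2 fold change -1.20 and adjusted p = 1.9e-06 at 1 h), and the table gives 1 value for the whole transcript, so that reads from the deleted part were not told apart. The summed level of 7 macrophage markers was 10800 to 18400 CPM in all libraries, whereas 5 fibroblast markers summed to at most 1.87 CPM and 4 erythroid markers to at most 0.243 CPM. The sums reached 37.2 CPM for neutrophil, 27 CPM for dendritic cell, 5.31 CPM for mast cell and basophil and 4.77 CPM for B cell markers. T cell markers summed to 26.4 to 30.9 CPM in BMDM-WT and 21.7 to 38.2 CPM in BMDM-Nur77-KO at 5 h, and to at most 2.84 CPM at the other times. Of the BMDM-Nur77-KO libraries, replicate 1 at 5 h and replicate 4 at 18 h stood farthest from the other libraries of their groups, by 0.493 and 0.353 in the median absolute log2 deviation over genes (0.0815 to 0.294 in the other 30 libraries). The tenth of genes with the highest GC content of the transcript (58.1% or more) lay at a median log2 deviation of -0.80 in the first of these and -0.56 in the second, and the tenth with the lowest (42.0% or less) at 0.69 and 0.55. Junb and Jund are GC-rich (62.6% and 67.1% of the transcript), so their values without these libraries are given beside the results that change.

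The 10 genes lie on 7 chromosomes of mm10 (GRCm38). Fos (chr12:85473890-85477274) and Batf (chr12:85686720-85709087) are 209.4 kb apart on the same strand, with Jdp2, the gene of a further JUN partner, between them (chr12:85598656-85639878). Batf3 (chr1:191098414-191108943) and Atf3 (chr1:191170296-191183333) are 61.4 kb apart on opposite strands. Junb (chr8:84976909-84978748) and Jund (chr8:70697739-70700616) share chromosome 8, and Jun (chr4:95049036-95052222), Fosb (chr7:19302696-19310118), Fosl1 (chr19:5447698-5455938) and Fosl2 (chr5:32136472-32157840) lie apart. The table holds 2 transcripts each of Jund and Fosb, whose reads are shared between the isoforms, and 1 of each of the others.

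The 250 bases before the RefSeq start site (GRCm38.p6) are shown for 5 members that rose at 1 h of LPS in both genotypes (Jun, Junb, Fos, Fosb and Atf3) and for Batf, which rose only later. They were read 5′ to 3′ on the strand of the gene, from chr4:95052223-95052472 (minus strand) for Jun, chr8:84978749-84978998 (minus) for Junb, chr12:85473640-85473889 (plus) for Fos, chr7:19310046-19310295 (minus) for Fosb, chr1:191183334-191183583 (minus) for Atf3 and chr12:85686470-85686719 (plus) for Batf. For Fosb, this start site lies inside the locus of the counted transcript given above, so that the window overlaps it, and distances are counted from the start site of the window. Capitals mark every match, on either strand, to the NBRE, the site bound by Nur77 (AAAGGTCA), the cyclic AMP response element CRE (TGACGTCA) or its core (TGACG), the AP-1 site TRE (TGANTCA), the TATA box (TATAAA), the CArG box of serum response factor or the kB consensus of NF-kB.
Jun: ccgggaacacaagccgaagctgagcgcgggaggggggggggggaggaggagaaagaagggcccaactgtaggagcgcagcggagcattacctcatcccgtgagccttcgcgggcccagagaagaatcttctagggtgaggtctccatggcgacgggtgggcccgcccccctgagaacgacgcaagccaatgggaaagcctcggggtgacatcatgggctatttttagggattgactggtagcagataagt
Junb: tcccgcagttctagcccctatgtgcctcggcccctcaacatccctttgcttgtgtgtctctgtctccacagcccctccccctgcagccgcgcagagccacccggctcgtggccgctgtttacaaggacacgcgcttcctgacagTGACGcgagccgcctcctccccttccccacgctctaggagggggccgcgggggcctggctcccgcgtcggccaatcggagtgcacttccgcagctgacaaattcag
Fos: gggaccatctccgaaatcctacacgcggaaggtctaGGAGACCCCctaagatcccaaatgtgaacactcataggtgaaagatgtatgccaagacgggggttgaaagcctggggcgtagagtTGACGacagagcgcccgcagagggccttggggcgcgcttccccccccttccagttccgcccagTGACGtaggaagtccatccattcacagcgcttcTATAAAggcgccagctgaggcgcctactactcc
Fosb: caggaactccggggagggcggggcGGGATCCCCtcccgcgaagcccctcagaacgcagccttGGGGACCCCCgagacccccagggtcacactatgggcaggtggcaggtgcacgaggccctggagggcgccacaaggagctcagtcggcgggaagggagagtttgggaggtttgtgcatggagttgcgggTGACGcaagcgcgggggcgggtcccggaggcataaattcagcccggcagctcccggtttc
Atf3: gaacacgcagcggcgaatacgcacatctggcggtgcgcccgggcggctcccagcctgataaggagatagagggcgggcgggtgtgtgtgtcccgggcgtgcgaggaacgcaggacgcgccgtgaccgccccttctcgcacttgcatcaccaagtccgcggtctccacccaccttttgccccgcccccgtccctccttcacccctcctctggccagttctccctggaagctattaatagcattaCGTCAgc
Batf: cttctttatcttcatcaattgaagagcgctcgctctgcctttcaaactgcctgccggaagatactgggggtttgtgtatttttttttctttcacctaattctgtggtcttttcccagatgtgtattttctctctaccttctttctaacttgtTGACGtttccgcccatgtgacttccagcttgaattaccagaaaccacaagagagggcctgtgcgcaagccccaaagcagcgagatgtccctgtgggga
Promoters of 9 of the 10 members were in the RefSeq table. The full CRE, the NBRE, the TRE and the CArG box had 0 matches in these 9, and 1.55%, 1.34%, 6.75% and 1.47% of all 32851 promoters of the same length hold them. The CRE core, searched after the sequences had been seen and part of every full CRE, was in 5 of the 9 (Junb, Fos, Fosb, Atf3 and Batf), compared with 17.8% of all promoters. In Fos it starts 129 and 66 bases before the start site, in Fosb 60, in Batf 98 and in Junb 106 bases, and in Atf3 it lies 7 to 3 bases before it on the other strand. A TATA box was in Fos alone among the 9, 33 bases before the start site (12.4% of all promoters), and kB matches, which overlap each other in Fosb and Fosl2, were in Fos, Fosb and Fosl2 (7.91%). These are matches of letters in a short window, and binding was not measured in these libraries.

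Per length, Atf3 was the highest member before LPS, at 161 RPKM in BMDM-WT and 200 RPKM in BMDM-Nur77-KO, with 46.5% ± 2.61 and 55.6% ± 1.93 (SD, n = 4) of the summed RPKM of all 10. At 1 h, Junb took over in both genotypes, at 489 RPKM in BMDM-WT and 460 RPKM in BMDM-Nur77-KO, followed by Atf3 (322 and 366), Fos (201 and 201) and Jun (92.9 and 95.5). The first 5 places, of which Jund took the last, did not overlap in either genotype, whereas the libraries of Fosb and Fosl2 overlapped. At 5 and 18 h, Atf3 led again in both genotypes, at 331 to 421 RPKM, with Junb second. Batf went from 2.34 RPKM and the seventh place at 0 h to 57.7 RPKM and the third place at 18 h in BMDM-WT, above Jund, Jun and Fos. In BMDM-Nur77-KO at 18 h, Batf stood at 94.9 RPKM and Junb at 96.6 RPKM, and their libraries overlapped. Among the 6 highest members, neighbours in this order also overlapped for Fos, Junb and Jund at 0 h, for Fos and Jun at 5 h, and for Junb and Jund, and Batf and Jun, in BMDM-Nur77-KO at 5 h. Batf3 and Fosl1 were at or under 3.69 RPKM in all groups, as was Fosb at 0, 5 and 18 h and Fosl2 at 18 h.

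**Figure D1:**
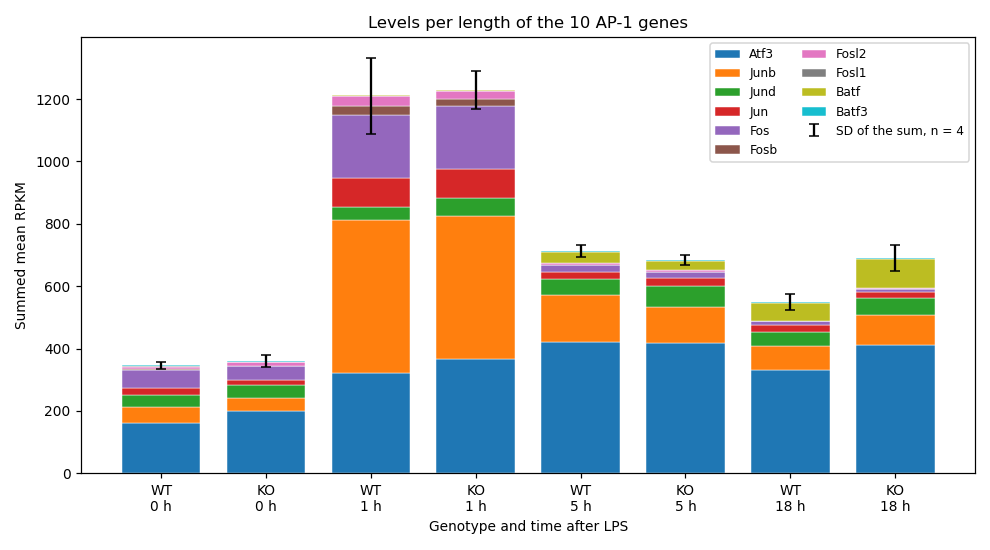
Stacked bars of the mean RPKM of each AP-1 gene (4 libraries per group) by genotype and time after LPS, with the SD of the sum over the 4 libraries as a black bar. The sum went from 346 RPKM in BMDM-WT and 360 RPKM in BMDM-Nur77-KO at 0 h to 1210 and 1230 RPKM at 1 h, and the part of Junb and Fos shrank from 1 h to 18 h while that of Batf grew.

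In sum, the 4 FOS genes held 20% ± 1.02 (SD, n = 4) of the members' RPKM at 0 h in BMDM-WT, 21.7% ± 1.02 at 1 h, 4.2% ± 0.134 at 5 h and 2.66% ± 0.367 at 18 h. The share of Batf and Batf3 went the other way, from 1.06% ± 0.152 at 0 h to 10.9% ± 0.915 at 18 h. In BMDM-Nur77-KO, the corresponding shares at 18 h were 1.83% ± 0.239 for the FOS genes and 14.1% ± 1.12 for Batf and Batf3.

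The first question was how LPS moves each gene. All tests were edgeR's quasi-likelihood tests with Benjamini-Hochberg adjustment over the 11186 genes, and a gene was called at an adjusted p under 0.05. At 1 h, 7 of the 10 members rose in BMDM-WT and 0 fell, where 10.1% of all genes tested rose and 10.2% fell. In BMDM-Nur77-KO, 7 rose and 0 fell as well, compared with 6.9% and 5.39% of all genes tested. The median log2 fold change of the members was 1.60 in BMDM-WT and 1.12 in BMDM-Nur77-KO, beside -0.03 and 0.00 for all genes. Jun, Junb, Fos, Fosb, Fosl2 and Atf3 rose in both genotypes, Fosl1, whose entry to the test rests on its 1 h level, passed in BMDM-WT and Jund in BMDM-Nur77-KO. Batf and Batf3 passed in neither.

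Among the JUN genes, Junb had the largest response at 1 h. Its libraries were at 77.5, 103, 90.7 and 95.5 CPM at 0 h and at 910, 1040, 832 and 755 CPM at 1 h in BMDM-WT (9.65-fold, log2 fold change 3.27 ± 0.21 standard error, SE, adjusted p = 5.8e-14). The BMDM-Nur77-KO libraries went from 69.4, 71.0, 74.6 and 82.1 CPM to 928, 818, 762 and 820 CPM (log2 fold change 3.49 ± 0.21 SE, adjusted p = 1.8e-14). All 1 h libraries lay above all 0 h libraries in both genotypes. Jun, the gene of c-Jun, went from 67.9 to 76.0 CPM at 0 h to 255 to 343 CPM at 1 h in BMDM-WT (log2 fold change 2.08 ± 0.10 SE, adjusted p = 3.5e-17) and from 54.7 to 58.0 CPM to 291 to 338 CPM in BMDM-Nur77-KO (2.43 ± 0.10 SE, adjusted p = 1.1e-18). Jund, which is expressed at a steady level in most cells, was at 66.1 ± 12.7 and 72.7 ± 5.97 CPM (SD, n = 4) in BMDM-WT, and the groups overlapped (adjusted p = 0.41). In BMDM-Nur77-KO it went from 68.8 ± 4.74 to 92.8 ± 9.3 CPM (log2 fold change 0.43 ± 0.11 SE, adjusted p = 0.0072). With a correction for GC content, the call of Jund changed sides between the genotypes. It then passed in BMDM-WT (log2 fold change 0.44, adjusted p = 0.032) and not in BMDM-Nur77-KO (0.35, adjusted p = 0.13).

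Among all members, Fosb had the largest response at 1 h. The level was 4.89, 5.31, 5.91 and 6.54 CPM at 0 h and 127, 142, 78.7 and 109 CPM at 1 h in BMDM-WT (20.2-fold, log2 fold change 4.33 ± 0.19 SE, adjusted p = 6.8e-18). In BMDM-Nur77-KO, 3.74, 3.55, 3.91 and 4.62 CPM became 91.9, 77.2, 64.1 and 90.1 CPM (log2 fold change 4.35 ± 0.20 SE, adjusted p = 1.9e-17). Fos started higher and rose less, from 119 to 131 CPM to 385 to 490 CPM in BMDM-WT (log2 fold change 1.79 ± 0.10 SE, adjusted p = 1.2e-15) and from 87.5 to 101 CPM to 403 to 444 CPM in BMDM-Nur77-KO (2.18 ± 0.10 SE, adjusted p = 1.5e-17). Fosl2 went from 59.6 ± 3.55 to 197 ± 19.6 CPM and from 64.2 ± 3.4 to 166 ± 12.9 CPM (SD, n = 4) in the same order (log2 fold change 1.72 and 1.37, standard error 0.11 for both, adjusted p = 5.2e-14 and 1.4e-11). Fosl1 had only 10 to 54 counts per library at 0 and 1 h (in BMDM-WT, log2 fold change 1.48 ± 0.28 SE, adjusted p = 0.00014, and in BMDM-Nur77-KO 0.68 ± 0.28 SE, adjusted p = 0.14).

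Atf3 went from 323, 302, 322 and 331 CPM to 686, 634, 660 and 577 CPM in BMDM-WT, a 2-fold rise (log2 fold change 1.00 ± 0.07 SE, adjusted p = 1.7e-13). In BMDM-Nur77-KO the libraries were at 418, 354, 391 and 422 CPM at 0 h and 767, 728, 697 and 716 CPM at 1 h (log2 fold change 0.87 ± 0.07 SE, adjusted p = 4.7e-12). Batf had 12 to 41 counts and Batf3 6 to 21 counts per library at 0 and 1 h in both genotypes.

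**Figure D2:**
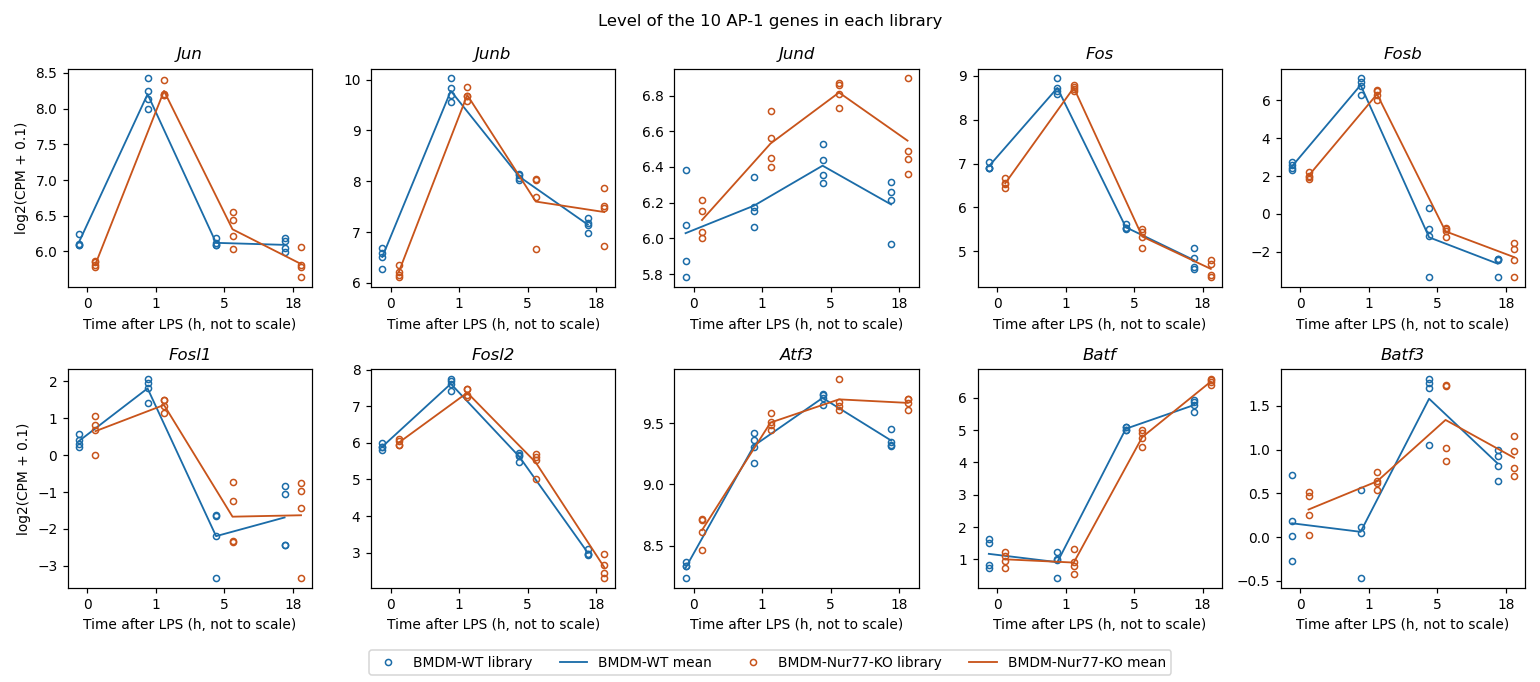
Level of each AP-1 gene as log2(CPM + 0.1) against time after LPS, with 1 circle per library and a line through the group means, for BMDM-WT and BMDM-Nur77-KO (n = 4 per group). Fos, Fosb, Fosl1 and Fosl2 fell below their 0 h level after the peak at 1 h, Batf rose at 5 and 18 h, and the lowest Junb circle at 5 h is replicate 1 of BMDM-Nur77-KO, at 101 CPM.

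At 5 h, the FOS and BATF genes had moved apart. In BMDM-WT, 5 members were above their 0 h level and 4 below, where 30.1% of all genes tested were higher and 40.1% lower. Without Nur77, 6 were higher and 4 lower, compared with 32.2% and 39.3% of all genes. The 4 lower ones were Fos, Fosb, Fosl1 and Fosl2 in both genotypes. The median log2 fold change of all genes was -0.14 in BMDM-WT and -0.12 in BMDM-Nur77-KO, and with DESeq2's size factors -0.05 and -0.03. With those factors, the fall of Fosl2 in BMDM-WT (log2 fold change -0.27 ± 0.11 SE, adjusted p = 0.028) did not pass (adjusted p = 0.13). It was also lost with the GC correction (log2 fold change -0.03, adjusted p = 0.79) and without replicate 3 of BMDM-WT at 0 h or replicate 1 at 5 h (adjusted p = 0.081 and 0.095).

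Fos was at 49.5, 45.3, 46.0 and 46.2 CPM at 5 h in BMDM-WT and 45.4, 43.1, 40.0 and 33.8 CPM in BMDM-Nur77-KO, all under every 0 h library (log2 fold change -1.39 and -1.21, standard error 0.10 for both, adjusted p = 1.5e-13 and 3.8e-12). Fosb was down to 0 to 10 counts per library, and Fosl1 to 0 to 6 counts. In BMDM-WT, Fosl1 had no more than 2 counts in any 5 h library, a level at least 3.49-fold lower than at 0 h and at least 9.98-fold lower than at 1 h when 3 counts are set for each library. This bound covers counting error only. Batf, with 226 to 361 counts in the 5 h libraries, was 14.9-fold higher than at 0 h in BMDM-WT (31.7, 34.0, 34.2 and 31.7 CPM, log2 fold change 3.90 ± 0.16 SE, adjusted p = 1.4e-19). In BMDM-Nur77-KO it was at 32.2, 30.1, 26.7 and 22.1 CPM (log2 fold change 3.83 ± 0.17 SE, adjusted p = 5.2e-19). Atf3 reached its highest level in BMDM-WT at 5 h, 836 ± 22.3 CPM (SD, n = 4), and was at 831 ± 66.6 CPM in BMDM-Nur77-KO (log2 fold change 1.39 and 1.07 against 0 h, standard error 0.07 for both, adjusted p = 8.1e-18 and 4.8e-15).

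Junb remained above its 0 h level at 5 h. Its 4 libraries were at 267, 278, 284 and 261 CPM in BMDM-WT (log2 fold change 1.57 ± 0.20 SE, adjusted p = 2.7e-08). The BMDM-Nur77-KO libraries were at 101, 206, 263 and 259 CPM (log2 fold change 1.48 ± 0.20 SE, adjusted p = 9.2e-08), where the value of 101 CPM belongs to the library that stood apart. Jun was back at 69.5 ± 2.18 CPM (SD, n = 4) in BMDM-WT (log2 fold change -0.01 against 0 h, standard error 0.10, adjusted p = 0.91) and at 80 ± 12.6 CPM in BMDM-Nur77-KO (0.50 ± 0.10 SE, adjusted p = 3.7e-05). Jund was at 84.9 ± 5.8 CPM and 113 ± 5.15 CPM (log2 fold change 0.36 and 0.71, standard error 0.11 for both, adjusted p = 0.0058 and 1.9e-06).

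At 18 h against 0 h, 4 members were higher and 4 lower in BMDM-WT, where 32.4% of all genes tested were higher and 34% lower. Without Nur77, 5 were higher and 4 lower, compared with 33.9% and 35.7% of all genes. Junb, Atf3, Batf and Batf3 were higher in both genotypes, Jund in BMDM-Nur77-KO, and the 4 FOS genes were lower in both. Batf reached 58.7, 54.3, 47.0 and 60.6 CPM in BMDM-WT (25-fold, log2 fold change 4.64 ± 0.16 SE, adjusted p = 2e-21) and 83.8, 94.4, 89.4 and 95.1 CPM in BMDM-Nur77-KO (46.5-fold, 5.54 ± 0.16 SE, adjusted p = 3.5e-23). Fosl2 dropped to 7.89 ± 0.442 CPM and 6.06 ± 1.27 CPM (SD, n = 4), 7.54-fold and 10.6-fold under the 0 h level (adjusted p = 6.7e-19 and 1.9e-20). Fosb had 0 to 3 counts in all 8 libraries at 18 h, at least 21-fold lower than at 0 h in BMDM-WT and at least 16-fold lower in BMDM-Nur77-KO. The call of Batf3 did not pass without replicate 4 of BMDM-WT at 0 h (adjusted p = 0.057), nor in BMDM-Nur77-KO without replicate 3 at 0 h or replicate 2 or 3 at 18 h (adjusted p = 0.053 to 0.077). Jund in BMDM-WT passed without replicate 2 at 0 h only (log2 fold change 0.28, adjusted p = 0.027). All comparisons with 0 h share the same 4 untreated libraries of their genotype.

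Between successive times, Jun, Junb and the 4 FOS genes came down from their 1 h level in both genotypes, whereas Jund was at a higher mean level at 5 h than at 1 h. From 1 h to 5 h in BMDM-WT, 6 members fell and 3 rose, where 36.2% of all genes tested fell and 29% rose. In BMDM-Nur77-KO, 6 fell and 4 rose, compared with 38.3% and 32.5% of all genes. Fos fell 9.07-fold in BMDM-WT and 10.5-fold in BMDM-Nur77-KO, Jun 4.26-fold and 3.81-fold, and Junb 3.24-fold and 4.02-fold. Among the rises in BMDM-Nur77-KO, Jund did not pass without replicate 2 or 3 at 1 h or replicate 3 at 5 h (adjusted p = 0.056 to 0.085), and Atf3 did not without replicate 1 at 5 h (adjusted p = 0.059). In BMDM-WT, Jund also passed as higher under other settings. These were DESeq2 (adjusted p = 0.033), its size factors (0.036), the GC correction (0.022) and only the libraries compared (0.0024). From 5 h to 18 h in BMDM-WT, 6 members fell and Batf alone rose, beside 33.4% and 36.1% of all genes, and Fosb did not pass without replicate 1 at 5 h (adjusted p = 0.1). Jund passed as lower there with DESeq2 (adjusted p = 0.037), its size factors (0.04), the GC correction (0.0016) and only the libraries compared (0.042). In BMDM-Nur77-KO, 6 fell and Batf alone rose, beside 34.2% and 35.2% of all genes. Of the 6 in BMDM-Nur77-KO, Jund, Fosb and Batf3 were near the threshold (adjusted p = 0.046, 0.043 and 0.048), and each was lost when any of several single libraries was left out (adjusted p up to 0.16 for Jund, 0.14 for Fosb and 0.19 for Batf3). In all, 4 members passed without replicate 3 or without replicate 4 at 5 h. Atf3 fell from 5 h to 18 h in BMDM-WT (log2 fold change -0.35 ± 0.07 SE, adjusted p = 2.9e-05), while in BMDM-Nur77-KO its level was 831 ± 66.6 and 813 ± 22.5 CPM (SD, n = 4, log2 fold change -0.03 ± 0.07 SE, adjusted p = 0.68). With the GC correction, Atf3 also passed as lower in BMDM-Nur77-KO (-0.19, adjusted p = 0.019). Junb fell in BMDM-WT over the same interval (log2 fold change -0.94 ± 0.19 SE, adjusted p = 8.3e-05). In BMDM-Nur77-KO its log2 fold change was -0.24 ± 0.19 SE (adjusted p = 0.26) with all libraries and -0.47 (adjusted p = 0.006) without replicate 1 at 5 h, which stood apart. It was -0.07 (adjusted p = 0.75) without replicate 4 at 18 h, the other such library, and -0.29 (adjusted p = 0.023) without both. With the GC correction it was -0.68 (adjusted p = 1.2e-08). Whether the change from 5 h to 18 h differs between the genotypes was not tested for any gene.

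The second question was what differs without Nur77 at each time. Before LPS, Fos and Jun were lower and Atf3 higher in BMDM-Nur77-KO. These 3 of the 10 members passed the test, 1 higher and 2 lower, where 6.33% of all genes tested were higher and 6.34% lower. Fos was at 119, 120, 131 and 120 CPM in BMDM-WT and 94.2, 87.5, 101 and 92.4 CPM in BMDM-Nur77-KO (log2 fold change -0.38 ± 0.10 SE, adjusted p = 0.0071). Atf3, at 323, 302, 322 and 331 CPM against 418, 354, 391 and 422 CPM, was 1.24-fold higher (log2 fold change 0.31 ± 0.07 SE, adjusted p = 0.0016). For both genes the groups did not overlap, and the call held under every alternative except the limit on the fold. Jun was at 68.7, 76.0, 67.9 and 67.9 CPM against 58.0, 56.0, 54.7 and 57.4 CPM (log2 fold change -0.31 ± 0.10 SE, adjusted p = 0.031). This call was lost with a correction for GC content (log2 fold change -0.17, adjusted p = 0.54), with DESeq2's size factors (adjusted p = 0.056) and without any single one of replicates 1, 2 and 3 in BMDM-Nur77-KO or of the 4 in BMDM-WT (adjusted p = 0.05 to 0.092). At 0 h, the tenth of genes with the highest GC content had a median log2 fold change of -0.23 between the genotypes and that with the lowest 0.24. Junb, at a log2 fold change of -0.30, passed as lower when both libraries that stood apart were left out (adjusted p = 0.029), although neither is from 0 h. With only the 0 h libraries fitted, Junb (-0.28, adjusted p = 0.034) and Fosb (-0.50, adjusted p = 0.024) passed as lower. Fosb was at 4.89 to 6.54 CPM in BMDM-WT and 3.55 to 4.62 CPM in BMDM-Nur77-KO. In the main fit its log2 fold change was -0.52 (adjusted p = 0.13). Other markers also differed at 0 h. Of the 7 macrophage markers, Cd68 and Fcgr1 were lower in BMDM-Nur77-KO (log2 fold change -0.24 and -0.66), and their sum was 13000 to 15500 CPM against 12900 to 18400 CPM. Of the 3 neutrophil markers tested, S100a8 and Ltf were higher (0.70 and 0.62), with all 8 markers of the list at 19 to 26.3 CPM against 12 to 21.1 CPM. Cd79b, the B cell marker tested, was lower (-0.97, mean 1.31 and 2.64 CPM), and of the 5 heat shock genes Hspa1b and Hsph1 were higher (0.74 and 0.55). The part of these genes in the differences of Fos, Jun and Atf3 was not tested.

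At 1 h, when 7 members peaked or rose, 0 of the 10 passed the test between the genotypes by edgeR, where the shares of all genes tested were 3.48% higher and 3.06% lower. At an unadjusted p under 0.05 there were 5, of which 3 were higher. DESeq2 called 2, Jund and Atf3 (log2 fold change 0.35 and 0.19, adjusted p = 0.034 and 0.028). With the GC correction in edgeR, neither passed (0.20 and 0.17, adjusted p = 0.5 and 0.16). Jund was at 66.8 to 81 CPM in BMDM-WT and 84.2 to 105 CPM in BMDM-Nur77-KO. Atf3 was at 577 to 686 CPM and 697 to 767 CPM in the same order. Fos was at 424 ± 46.1 CPM in BMDM-WT and 424 ± 17.6 CPM in BMDM-Nur77-KO (SD, n = 4, log2 fold change 0.00 ± 0.09 SE). Jun had a log2 fold change of 0.04 ± 0.09 SE and Junb of -0.09 ± 0.19 SE. Fosb had the largest difference relative to its error among the FOS genes, with 127, 142, 78.7 and 109 CPM in BMDM-WT and 91.9, 77.2, 64.1 and 90.1 CPM in BMDM-Nur77-KO (log2 fold change -0.50 ± 0.16 SE, adjusted p = 0.056). Its groups overlapped through replicate 3 of BMDM-WT, without which the log2 fold change was -0.64 (adjusted p = 0.0097), and with the GC correction the adjusted p was 0.0039. When both libraries that stood apart were left out, 4 members passed at 1 h, with Fosb and Fosl2 lower (adjusted p = 0.01 and 0.023) and Jund and Atf3 higher (adjusted p = 0.033 for both), although neither library is from 1 h. In the main fit, all 8 groups share 1 estimate of the spread. With only the 1 h libraries fitted, the same 4 passed (adjusted p = 0.032 for Fosb, 0.036 for Fosl2, 0.0055 for Jund and 0.038 for Atf3).

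At 5 h, Jund alone was called, 1.33-fold higher in BMDM-Nur77-KO, and 0 members were lower, where 13.7% of all genes tested were higher and 10.7% lower. Its libraries were at 81.6, 86.8, 92.2 and 79.1 CPM in BMDM-WT and 116, 106, 117 and 112 CPM in BMDM-Nur77-KO (log2 fold change 0.41 ± 0.11 SE, adjusted p = 0.011). The groups did not overlap, and the call held under every alternative except the limit on the fold. Junb had a log2 fold change of -0.40 ± 0.19 SE (adjusted p = 0.13), and of -0.17 (adjusted p = 0.3) without the libraries that stood apart. With the GC correction, and without replicate 3 or 4 of BMDM-Nur77-KO, it passed as lower (log2 fold change -0.26, -0.53 and -0.52, adjusted p = 0.018, 0.044 and 0.047). Batf, at 32.9 ± 1.36 and 27.8 ± 4.43 CPM, and Fos, at 46.7 ± 1.86 and 40.6 ± 5.03 CPM (SD, n = 4), did not pass (adjusted p = 0.15 and 0.13).

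At 18 h, Batf, Jund and Atf3 were higher in BMDM-Nur77-KO and 0 members were lower, where 11.7% of all genes tested were higher and 9.93% lower. The median log2 fold change of the 10 members was 0.30, beside -0.01 for all genes. Batf was 1.64-fold higher, with 58.7, 54.3, 47.0 and 60.6 CPM in BMDM-WT and 83.8, 94.4, 89.4 and 95.1 CPM in BMDM-Nur77-KO (log2 fold change 0.72 ± 0.12 SE, adjusted p = 3.2e-05). Atf3 was 1.24-fold higher, with 641, 701, 636 and 650 CPM against 781, 829, 829 and 811 CPM (log2 fold change 0.31 ± 0.07 SE, adjusted p = 0.00078). For both, no BMDM-Nur77-KO library overlapped a BMDM-WT library. Over the alternatives that keep the test without a limit on the fold, the highest adjusted p was 0.00074 for Batf and 0.018 for Atf3, and with the limit Batf passed alone.

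Jund at 18 h was at 76.4, 74.1, 62.6 and 79.7 CPM in BMDM-WT and 82.0, 87.1, 119 and 89.7 CPM in BMDM-Nur77-KO (log2 fold change 0.37 ± 0.11 SE, adjusted p = 0.017). It did not pass without replicate 3 of BMDM-Nur77-KO (log2 fold change 0.24, adjusted p = 0.13), without replicate 3 of BMDM-WT (0.30, adjusted p = 0.064), or with only the 8 libraries of this time (adjusted p = 0.1). Junb was spread from 106 to 234 CPM in BMDM-Nur77-KO, beside 127 to 156 CPM in BMDM-WT (log2 fold change 0.30 ± 0.19 SE, adjusted p = 0.29). Its lowest value, 106 CPM, was in replicate 4, the library that stood apart. Without both such libraries the log2 fold change was 0.48 (adjusted p = 0.00091), and with the GC correction it was 0.35 (adjusted p = 0.0013). Jun and Fosl2 were near the threshold on the lower side (log2 fold change -0.26 and -0.38, standard error 0.10 and 0.14, adjusted p = 0.053 and 0.052). Jun passed without replicate 4 of BMDM-Nur77-KO (-0.35, adjusted p = 0.013) or replicate 3 of BMDM-WT (-0.30, adjusted p = 0.039), and Fosl2 without replicate 1 of BMDM-Nur77-KO (-0.52, adjusted p = 0.01).

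**Figure D3:**
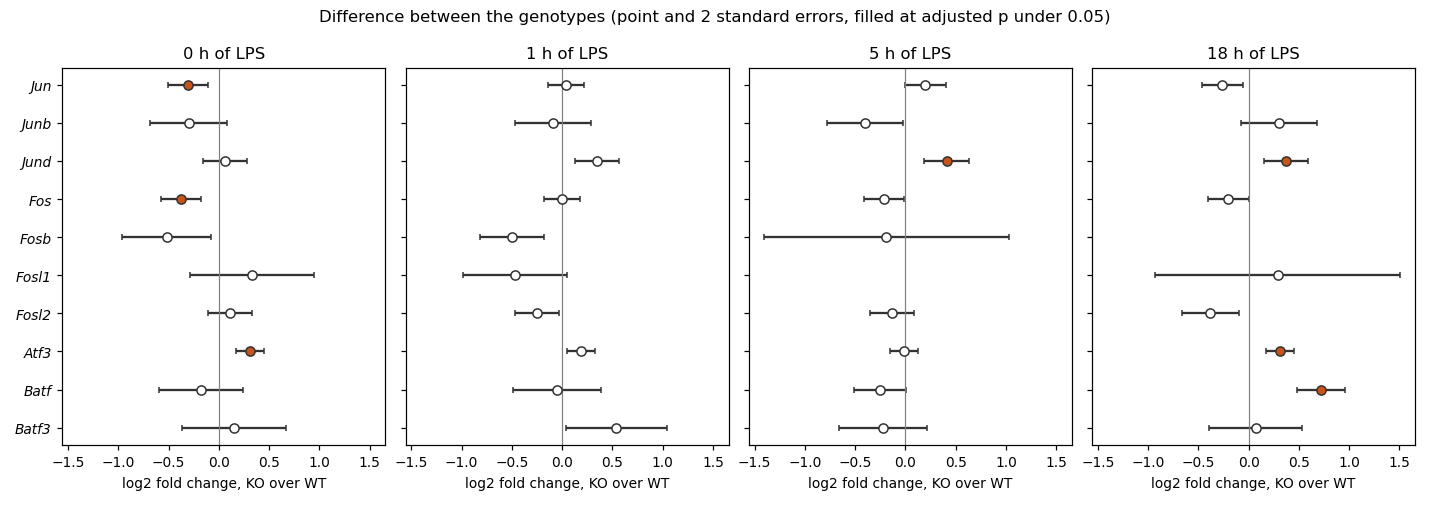
Log2 fold change of each AP-1 gene in BMDM-Nur77-KO over BMDM-WT (point) with 2 standard errors on each side (bar) at each time after LPS, with filled points at an adjusted p under 0.05 (n = 4 per group). Points right of 0 are higher in BMDM-Nur77-KO, among them Batf, Jund and Atf3 at 18 h, and Fosb at 18 h and Fosl1 at 5 h are left out because 1 or both groups were at or under 3 counts.

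Levels of other cells' marker genes were measured beside the rise of Batf, since BATF factors are known in dendritic cells and lymphocytes. The 6 dendritic cell markers summed to 1.55 to 2.38 CPM in BMDM-Nur77-KO and 1.38 to 1.66 CPM in BMDM-WT at 0 h. In the same order, they were at 13.1 to 27 and 14.6 to 19.8 CPM at 5 h, and at 19 to 23.9 and 6.71 to 8.23 CPM at 18 h. Only 3 of the 6 passed the filter on low values, and all 3 were higher in BMDM-Nur77-KO, namely Clec9a (12.1 ± 2.86 and 3.51 ± 0.704 CPM, SD, n = 4, adjusted p = 8.4e-08), Ccr7 (4.27 ± 1.39 and 1.41 ± 0.195 CPM, adjusted p = 3.6e-05) and Xcr1 (4.35 ± 1.31 and 2.39 ± 0.404 CPM, adjusted p = 0.016). Zbtb46, a defining factor of conventional dendritic cells, had 1 to 5 counts and 1 to 2 counts per library, and Flt3 had 0 counts in BMDM-Nur77-KO. The markers of B cells summed to at most 3.92 CPM and those of T cells to at most 2.84 CPM at 18 h, and those of mast cells and basophils to at most 1.23 CPM. Only 1 B cell and 1 T cell marker passed the filter, and neither was called. Neutrophil markers were at 15.3 to 18.2 CPM and 15.4 to 20.3 CPM. The 7 macrophage markers summed to 10800 to 12300 CPM in BMDM-Nur77-KO and 13800 to 14300 CPM in BMDM-WT at 18 h, with Itgam, Csf1r, Adgre1 and Fcgr1 lower and Mertk higher. Of 5 heat shock genes that respond to cell handling, Hspa1a and Hspa1b were higher (log2 fold change 1.04 and 1.21, adjusted p = 3.9e-08 and 9.1e-08). The part of these genes in the differences of Batf, Atf3 and Jund was not tested.

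Whether the LPS response itself differs between the genotypes was asked with the interaction, the response of BMDM-Nur77-KO minus that of BMDM-WT relative to 0 h. At 1 h, 0 members passed by edgeR and 0 by DESeq2, and 3 had an unadjusted p under 0.05 (Jun, Fos and Fosl2), where 0.0447% of all genes tested were higher and 0.0268% lower. Fos alone passed by edgeR when only the libraries compared were fitted (0.36, adjusted p = 0.049). At 5 h, Jun passed with a higher response in BMDM-Nur77-KO (difference 0.51 on the log2 scale, standard error 0.14, adjusted p = 0.032), where 1.74% of all genes tested were higher and 1.38% lower. Its 0 h and 5 h libraries were at 67.9 to 76.0 and 67.8 to 72.6 CPM in BMDM-WT and at 54.7 to 58.0 and 65.5 to 93.6 CPM in BMDM-Nur77-KO. Without single libraries this call was lost 9 times, with adjusted p up to 0.084. At 18 h, Batf passed (difference 0.90 ± 0.24 SE, adjusted p = 0.013), beside 5.36% of all genes higher and 4.07% lower. Batf has 17 to 41 counts in the 0 h libraries, and the difference did not pass without replicate 3 or 4 of BMDM-WT at 0 h (0.79 and 0.73, adjusted p = 0.052 and 0.067) or with the GC correction (0.86, adjusted p = 0.086). Junb had a difference of 0.61 at 18 h (adjusted p = 0.19). It passed when the 18 h library that stood apart was left out (0.78, adjusted p = 0.038), without both libraries that stood apart (0.78, adjusted p = 0.00027) and with the GC correction (0.42, adjusted p = 0.013). For Atf3, the differences at 1, 5 and 18 h were -0.13, -0.32 and -0.01 (standard error 0.09 each, adjusted p = 0.55, 0.054 and 0.99). The one at 5 h passed when replicate 1 at 5 h (-0.38, adjusted p = 0.0094) or replicate 2 at 0 h (-0.37, adjusted p = 0.024) of BMDM-Nur77-KO was left out. It also passed without both libraries that stood apart (-0.38, adjusted p = 0.0061). With all libraries, it passed by DESeq2 (-0.32, adjusted p = 0.0059) and with summed transcripts (-0.33, adjusted p = 0.038).

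Some members followed each other over the 32 libraries, which share 8 groups, so that these correlations are descriptions only. Pearson's r of log2 CPM was 0.98 for Fos and Fosb, 0.89 for Fos and Fosl2, and 0.88 for Jun and Junb, whereas Batf and Batf3 had 0.66 and Atf3 and Batf3, which are neighbours in the genome, 0.65. Among all genes tested outside the members, the ones most like Junb were the phosphatase genes Dusp1 (r = 0.981) and Dusp2 (0.974), which encode inactivators of MAP kinases. Fos was followed by Dusp4 (0.982) and Dusp5 (0.978), Fosb by Nr4a1 itself (0.967) and Dusp4 (0.962), and Fosl2 by Egr2 (0.975) and Rrs1 (0.970). Jun was most like Areg (0.974) and Arih2 (0.962), Atf3 most like Il12b (0.969) and Mdm2 (0.956), and Batf most like Parp11 (0.993) and Apol9a (0.991). The values were lower for Fosl1 with Bora (0.909) and Pde8a (0.905), Batf3 with Rab29 (0.876) and Tnks1bp1 (0.874), and Jund with Cbarp (0.791) and Malt1 (0.776). The order depended on the measure. With Spearman's rho, only 3 of these 20 genes stayed, and those most like Fosb were Mxi1 (0.939) and Dusp5 (0.937).

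The 12 other AP-1 family genes examined comprise further ATF, BATF and MAF genes and Jdp2, which encodes a partner that holds JUN dimers inactive. At 18 h, 6 of the 12 were higher without Nur77 and 1 lower, with a median log2 fold change of 0.18 (-0.01 for all genes), where 11.7% of all genes tested were higher and 9.93% lower. Jdp2, the gene between Fos and Batf, was at 26.3 to 29 CPM in BMDM-WT and 87 to 134 CPM in BMDM-Nur77-KO (log2 fold change 1.97 ± 0.15 SE, adjusted p = 1.6e-11). At 5 h it had been at 73.7 to 90.4 CPM and 49 to 99 CPM, and at 1 h at 17.1 to 19 CPM and 10.8 to 13.5 CPM, when it was lower without Nur77 (log2 fold change -0.51 ± 0.16 SE, adjusted p = 0.048). Its LPS response at 18 h differed between the genotypes by 2.14 on the log2 scale (adjusted p = 2.3e-07). Maff, a small MAF gene, was at 1.46 to 2.25 CPM and 3.35 to 6.66 CPM at 18 h (log2 fold change 1.40 ± 0.21 SE, adjusted p = 5.8e-06), and Batf2, a BATF gene induced by interferon, at 25 to 31.5 CPM and 37.9 to 61.8 CPM (0.86 ± 0.19 SE, adjusted p = 0.0011). At 1 h, beside 3.48% of all genes tested higher and 3.06% lower, 0 of the 12 were higher and 2 lower, Jdp2 and Atf6, a sensor of protein folding (log2 fold change -0.60 ± 0.08 SE, adjusted p = 2.5e-06).

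**Figure D4:**
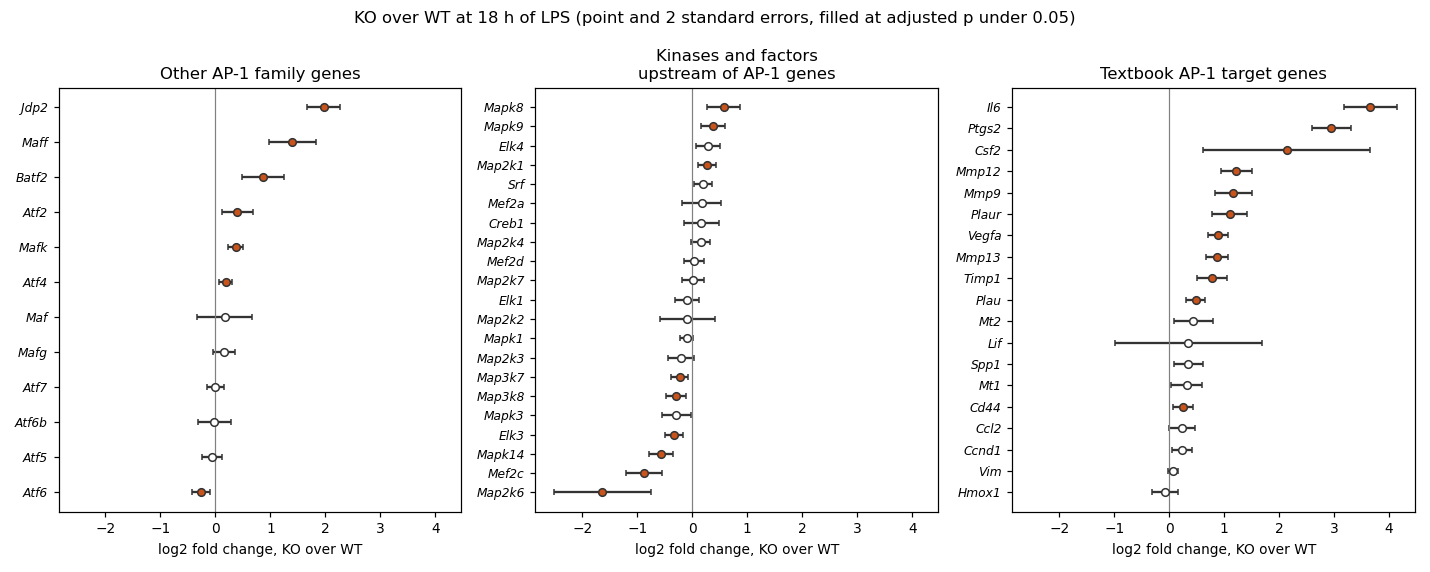
Log2 fold change in BMDM-Nur77-KO over BMDM-WT at 18 h of LPS (point) with 2 standard errors on each side (bar) for the other AP-1 family genes, the kinases and factors upstream of AP-1 genes and the textbook AP-1 targets, with filled points at an adjusted p under 0.05 (n = 4 per group). Jdp2 lies at 1.97 among the family genes, the upstream genes lie on both sides of 0, and the called targets lie right of 0.

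Kinases and factors that act on AP-1 genes were called in both directions at 18 h. Of 21 such genes, 3 were higher and 6 were lower, with a median log2 fold change of -0.09, compared with 11.7% and 9.93% of all genes tested. Mef2c, a transcription factor of the Jun promoter, was lower (17.6 ± 3.68 and 32.4 ± 7.02 CPM in BMDM-Nur77-KO and BMDM-WT, SD, n = 4, adjusted p = 7.9e-05) and Mapk8, which encodes the kinase JNK1, higher (log2 fold change 0.57 ± 0.15 SE, adjusted p = 0.0068). Mapk14, the gene of p38 alpha, was lower by the same size (log2 fold change -0.57 ± 0.11 SE, adjusted p = 0.00015). Map2k6, the gene of an activator of p38, was lower, at 1 to 6 and 8 to 12 counts per library (adjusted p = 0.0062). At 1 h, 0 of the 21 were called in either direction by edgeR, beside 3.48% and 3.06% of all genes.

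Of 20 textbook AP-1 targets, 19 were tested. At 18 h, 11 were higher in BMDM-Nur77-KO and 0 lower, with a median log2 fold change of 0.48 beside -0.01 for all genes, of which 11.7% were higher and 9.93% lower. The largest were Il6 (43.1 to 64.4 CPM against 3.18 to 6.24 CPM, log2 fold change 3.66 ± 0.24 SE, adjusted p = 2.2e-11), Ptgs2, the gene of cyclooxygenase-2 (613 to 993 against 81.5 to 129 CPM, 2.95 ± 0.18 SE, adjusted p = 1.8e-13), and Csf2, which had 4 to 12 counts per library against 0 to 3. Untreated cells differed as well: at 0 h, the test called 7 targets up and 1 down in BMDM-Nur77-KO (6.33% and 6.34% of all genes). The median over the 19 targets was a log2 fold change of 0.06 there. At 5 h, the counts were 4 and 3 (13.7% and 10.7%). By the interaction at 18 h, 4 targets had a larger LPS response in BMDM-Nur77-KO and 0 a smaller one (5.36% and 4.07%). The 18 h count alone thus does not measure the LPS response. At 1 h, 3 were higher and 3 lower, compared with 3.48% and 3.06% of all genes. Mmp9, Timp1 and Mmp12 were higher (log2 fold change 1.18, 1.15 and 0.96, adjusted p = 6.4e-06, 2.3e-05 and 1.4e-05), whereas Il6, Ptgs2 and Ccl2 were lower (-0.87, -0.73 and -0.43, adjusted p = 0.04, 0.005 and 0.029). The list holds cytokine, protease and stress genes that other factors also control, and its members were chosen with earlier results of these data known.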

How the data were processed

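RNA-seq of 32 BMDM libraries was used. The authors deposited 1 table of expected counts, not normalized: per the methods, reads were aligned to mm10 with HISAT2 2.1.0, filtered on mapping quality with SAMtools and counted on 42361 RefSeq transcripts with HOMER. A mate of a read pair adds 0.5, and 28.6% of values are not whole. Whether counting used the strand is not stated. Of the transcripts, 42203 were named through RefSeq, 65 through GENCODE (GRCm38) and 93 not at all (0.233% to 1.37% of tags per library, left out). The transcript with the highest mean was kept for each of 25067 genes and rounded. Differences between isoforms are therefore not resolved.

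Levels are CPM on TMM-normalized library sizes. RPKM uses GENCODE lengths. edgeR 4.0.16 (R 4.3.3) fitted 1 quasi-likelihood model with a mean for each of 8 groups to all 32 libraries. It gave 17 comparisons, each adjusted by Benjamini-Hochberg over 11186 genes, those whose mean RPKM passed 1 in any group. Genes at an adjusted p under 0.05 were called, without a limit on the fold. The standard error is the absolute log2 fold change divided by the square root of F. Lower bounds set 3 counts for each library of a group whose libraries all have 3 counts or fewer.

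The members and gene lists were chosen with earlier results of these data known. A gene of the other AP-1 family list is not reported here. Named beyond the members are Nr4a1, the genes of each list called at 18 h or 1 h with the 3 largest changes, and the 2 genes most like each member. Other genes (Jdp2 as the neighbour of Fos and Batf, Mapk14, Ptgs2, Il6 and Ccl2 at 1 h, the MAF genes with an interaction, and single markers) were named after their values were seen. Alternatives were DESeq2 1.42.0, its size factors, 2 other filters, the compared libraries only, a replicate block, a limit on the fold, summed transcripts, a lowess correction for transcript GC content (span 0.3), and each library left out. Leaving out both libraries that stood apart, and the search for the CRE core, were added after seeing the data.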

Additional observations from a re-analysis of the deposited data

Results flagged for a closer look

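In 5 of the 80 groups of 4 libraries examined (10 genes in 8 groups), 1 library stood farther from the others than Dixon's critical value for 4 samples allows, given as the gap to the nearest library divided by the group's range. Chance puts about 1 in 20 groups past this limit. Jun in replicate 1 of BMDM-Nur77-KO at 1 h was at 338 CPM (291 to 296 CPM in the others, 0.894), and in replicate 2 of BMDM-WT at 0 h at 76 CPM (67.9 to 68.7 CPM, 0.901). Fos in replicate 3 of BMDM-WT at 0 h was at 131 CPM (119 to 120 CPM, 0.917). Fosb in replicate 3 of BMDM-WT at 18 h had 0 counts where the others had 1 each (0.905), and Batf3 in replicate 3 of BMDM-WT at 5 h was at 1.98 CPM (3.16 to 3.39 CPM, 0.837).

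The LPS response differed between the genotypes, by edgeR's interaction test, for 2 members and 4 other AP-1 family genes, where 1.74% of all genes tested had a larger and 1.38% a smaller response in BMDM-Nur77-KO at 5 h, and 5.36% and 4.07% at 18 h. On the log2 scale, with positive values for a larger response in BMDM-Nur77-KO, the differences were 0.51 for Jun (adjusted p = 0.032) and 0.71 for Mafg (adjusted p = 0.0085) at 5 h. At 18 h they were 0.90 for Batf (adjusted p = 0.013), 1.29 for Batf2 (adjusted p = 0.02), 2.14 for Jdp2 (adjusted p = 2.3e-07) and 0.39 for Mafk (adjusted p = 0.0059). The difference of Jun did not pass under 12 of 25 alternatives (adjusted p up to 0.087) and that of Batf under 3 of 25 (adjusted p up to 0.086). Mafg and Mafk encode MAF factors, which share the zipper of the AP-1 family.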

How the results depend on the processing

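No value of a member reversed a call. Of 1494 values of members under other settings, 1431 kept their side of the threshold, 23 fell below it and 40 passed it newly; with 1 library left out, 1539 of 1600 kept it, 47 fell below and 14 passed newly. Among uncalled values, 72 changed sign, the largest at 0.49 on the log2 scale. Counts of members called that moved by over 1.5 times were as follows, and the cause was not tested. With a limit on the fold, those called between the genotypes numbered 0, 0 and 1 (3, 1 and 3 without) at 0, 5 and 18 h, 2 and 3 from 5 h to 18 h in BMDM-WT and BMDM-Nur77-KO (7 and 7), and 0 for the interaction at 5 h (1). With only the libraries compared, they were 5 at 0 h, 4 at 1 h (0 with all libraries), 4 from 5 h to 18 h in BMDM-Nur77-KO, 1 for the interaction at 1 h (0) and 0 for that at 5 h. The GC correction gave 2 at 1 h, 3 at 5 h, 0 for the interaction at 5 h and 2 for that at 18 h (1). DESeq2 gave 2 at 1 h and 2 for the interaction at 5 h, summed transcripts 2 and no filter 0 for the latter. Without both libraries that stood apart there were 4 at 1 h, 5 at 18 h, and 2 for each interaction at 5 and 18 h. Leaving out each library in turn gave 0 to 1 at 1 h, 1 to 3 at 5 h, 4 to 7 from 5 h to 18 h in BMDM-Nur77-KO, 0 to 1 for the interaction at 5 h and 0 to 2 for that at 18 h. With Spearman's rho, 3 of the 20 genes most like the members were shared with Pearson's r.

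With a replicate block, 1 member was called between the genotypes at 1 h (Fosb, log2 fold change -0.49, adjusted p = 0.049), and from 5 h to 18 h in BMDM-Nur77-KO Batf3 (-0.50, adjusted p = 0.061) and Jund (-0.25, adjusted p = 0.056) were lost. The block changed no other call, and the numbers do not pair the samples (27 of 112 same-numbered pairs correlated over 0.1, with a range of -0.67 to 0.42).

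Over all genes, the counts called moved by over 1.5 times for the interaction at 1 h (8, with DESeq2 36, no filter 3, only the libraries compared 320, and without both libraries that stood apart 37) and at 5 h (349, with 526 by DESeq2, 722 with the GC correction, 179 with only the libraries compared, 585 without those 2). For the interaction at 18 h, 1055 became 1626 with the GC correction and 2032 without the 2 libraries. Between the genotypes, only the libraries compared gave 2452, 1712, 419 and 1519 at 0, 1, 5 and 18 h (1417, 731, 2730 and 2424), the GC correction gave 1139 at 1 h, and leaving out the 2 libraries gave 2866 at 0 h and 1279 at 1 h. For LPS at 1 h in BMDM-WT, 2270 became 3780 with the libraries compared and 3742 without the 2. Depth limits Fosb and Fosl1 at 5 and 18 h, with no more than 10 counts per library, and Batf3, with 6 to 21 at 0 and 1 h.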
